A study of Mus musculus with 5 samples.

Results

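Promoters of ion channel and neurotransmitter receptor genes were described for their long-range contacts in the supporting cells of the mouse embryonic gonad. The promoters were chosen by gene symbol, from the potassium (Kcn), sodium (Scn), calcium (Cacn), chloride (Clcn) and transient receptor potential (Trp) channel names, the GABA, glutamate, acetylcholine and serotonin receptor names (Gabr, Gri, Grm, Chrn, Chrm, Htr), and the intracellular calcium release channels (Itpr, Ryr). Baits were kept on chromosomes 1 to 9 where both ends of the interaction lie on the same chromosome, and Kcnq1 and Kcnq1ot1 were left out. With the original baits, 107 of 7674 baits matched. They stand for 74 gene symbols and hold 405 of 28991 interactions. With the extended baits, 153 of 11063 baits matched, with 108 gene symbols and 637 of 50644 interactions.

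The cells were taken from gonads of E13.5 embryos. Sertoli cells, the supporting cells of the testis, were sorted by the reporter Sox9IRES-GFP and gave 3 libraries. Pre-granulosa cells, their counterparts in the ovary, were sorted by the reporter Enh8-mCherry and gave 2 libraries. Each library came from about 100000 sorted cells, and the purity of a sort depends on which cells carry the reporter. No expression values were used here, so neither the cell types nor the expression of any channel gene could be checked against marker genes. Capture Hi-C joins DNA fragments that lie close together in the nucleus, in these libraries after cutting with DpnII at GATC, and enriches the junctions that contain a chosen promoter fragment, the bait.

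Ion channels let selected ions cross a membrane, opened by voltage, by a bound transmitter, by calcium or by other stimuli, and most of the families here are best known from neurons, where they set the resting potential, carry the action potential and receive synaptic signals. Transmitter receptors either contain such a channel or act through G proteins. Many of the genes lie in clusters of related genes, and several are spread over very long introns with alternative promoters. The list is nevertheless not purely neural. Cacna1s and Chrna1 encode subunits of skeletal muscle channels, Kcnh2 one of the heart, the Scnn1 genes those of the epithelial sodium channel, and Kcnu1 a channel of sperm. Itpr1, Itpr2 and Trpm7 are expressed in many tissues. Among the symbols that matched with the original baits, Htra2, Htra3 and Htra4 encode serine proteases and Trpc4ap a protein associated with a channel. These 4 genes are no channels or receptors. The extended baits also matched Htra1, Itpripl1 and Itpripl2, which are none either. All of these genes are kept in the counts.

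Each interaction has 1 CHiCAGO score for Sertoli cells and 1 for pre-granulosa cells. The score rises as a contact exceeds the background that falls with distance from the bait, and a contact was called at a score of at least 5. Both tables list only interactions that reach 5 in at least 1 cell type. The libraries of a cell type share 1 score, so no value has a replicate error, no test between the cell types was possible, and the depth behind the scores is unknown. Shares carry 95% Wilson intervals and medians 95% order-statistic intervals, which cover counting error only. Bins that touch carry some of the same signal, which makes these intervals narrower than they should be. Positions are those of the deposited tables, on mm10 per the submitters' processing notes.

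A start site of a RefSeq transcript lay inside 42 of the 107 original baits, and 5 of these promoters are shown because they run from CG-rich to CG-poor and belong to genes whose contacts are described below. Over 300 bases around the start, the 42 promoters held 1 to 41 CG. Each is the stretch of 250 bases before the start site in GRCm38.p6, 5′ to 3′ along the gene, with every CG dinucleotide in capitals. CG-rich promoters are typical of widely expressed genes. Trpm7 (chr2:126876262-126876511 on the minus strand) had 26 CG, Kcnn3 (chr3:89519914-89520163 on the plus strand) had 10, Scnn1b (chr7:121864788-121865037 on the plus strand) had 7, Chrna1 (chr2:73580339-73580588 on the minus strand) had 3 and Trpm8 (chr1:88306485-88306734 on the plus strand) had 1.
Trpm7-202: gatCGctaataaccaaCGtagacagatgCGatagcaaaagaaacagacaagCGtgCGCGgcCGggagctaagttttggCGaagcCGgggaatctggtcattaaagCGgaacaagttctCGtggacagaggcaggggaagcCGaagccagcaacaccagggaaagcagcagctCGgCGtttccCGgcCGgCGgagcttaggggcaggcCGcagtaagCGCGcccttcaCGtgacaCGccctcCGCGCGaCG
Kcnn3-201: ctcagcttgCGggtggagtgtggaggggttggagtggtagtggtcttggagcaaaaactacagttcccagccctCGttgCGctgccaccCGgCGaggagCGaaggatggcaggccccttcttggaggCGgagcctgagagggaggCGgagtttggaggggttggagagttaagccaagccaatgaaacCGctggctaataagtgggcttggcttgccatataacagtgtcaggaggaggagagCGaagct
Scnn1b-201: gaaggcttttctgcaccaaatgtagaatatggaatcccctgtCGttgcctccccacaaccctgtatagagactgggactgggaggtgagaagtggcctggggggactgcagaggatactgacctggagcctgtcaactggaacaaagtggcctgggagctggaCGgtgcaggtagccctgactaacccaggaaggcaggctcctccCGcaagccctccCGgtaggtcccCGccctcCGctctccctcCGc
Chrna1-201: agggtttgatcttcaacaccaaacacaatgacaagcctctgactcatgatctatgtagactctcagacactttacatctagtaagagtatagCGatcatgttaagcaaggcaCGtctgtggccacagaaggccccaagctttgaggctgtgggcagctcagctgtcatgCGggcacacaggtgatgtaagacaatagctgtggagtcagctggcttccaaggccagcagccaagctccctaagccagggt
Trpm8-201: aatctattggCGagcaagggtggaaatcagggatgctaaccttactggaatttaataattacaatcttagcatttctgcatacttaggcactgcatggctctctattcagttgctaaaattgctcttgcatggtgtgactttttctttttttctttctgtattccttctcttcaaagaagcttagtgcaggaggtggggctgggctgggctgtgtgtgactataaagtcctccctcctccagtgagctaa

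CG-rich and CG-poor promoters had a like balance of calls. Over the window of 250 bases before to 50 bases after the start, 16 of the 42 promoters (38.1%) had 15 or more CG, against 40.2% of 3509 baits on chromosomes 1 to 9 that hold a start site. The 16 CG-rich promoters had 48 Sertoli and 27 pre-granulosa calls, a ratio of 1.78, beside 1.91 in that class of the 3509 baits. The other 26 had 57 and 31, a ratio of 1.84, beside 1.93. These ratios rest on few baits and carry no interval. Listed contacts had a median of 3 per bait in the 16 and of 1.5 in the 26, where both classes of all baits had a median of 2. Within the same window GATC, the DpnII site, occurred in 35.7% of the 42 promoters, in 39.2% of the 3509 and in 48.0% of 32851 promoters in the RefSeq table. The motif CAGCACC, searched on both strands as a core of the binding sequence of REST, a repressor of neural genes, occurred in 7.14%, 7.32% and 7.14%. The motif GGACAG, another core of that sequence, occurred in 28.6%, 25.0% and 22.2%. These short words match often without any binding.

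Channel and receptor promoters had more called contacts in Sertoli cells than in pre-granulosa cells, and so did promoters in general. Of the 405 interactions, 315 were Sertoli calls (77.8%, interval 73.5 to 81.6) and 172 were pre-granulosa calls (42.5%, 37.7 to 47.3). Over all baits of chromosomes 1 to 9 these shares were 80.2% and 41.5%. There were 1.83 (1.52 to 2.20) Sertoli calls for each pre-granulosa call at the channel and receptor baits and 1.93 (1.89 to 1.98) at all baits. Both cell types called 82 of the 405 interactions (20.2%, 16.6 to 24.4), beside 21.7% of all interactions. These shared contacts were 26.0% of all Sertoli calls and 47.7% of all pre-granulosa calls here, against 27.0% and 52.3% over all baits. More Sertoli than pre-granulosa calls were found at 73 of the 107 baits (68.2%, beside 65.2% of all baits), more pre-granulosa calls at 19 (17.8%, beside 22.0%), and equal numbers at 15 (14.0%, beside 12.7%). None of these shares lay away from the value over all baits by more than its own interval. When only the 12025 top scores per cell type over all baits were kept, there were 168 Sertoli and 172 pre-granulosa calls at the channel and receptor baits, a ratio of 0.977 (0.790 to 1.21). That choice sets the ratio over all baits to 1, and the interval covers 1.

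With the original baits, contacts were spread over baits much as in the whole table. The median was 2 listed contacts per bait, as over all baits, and 36 of the 107 baits had 1 contact (33.6%, beside 35.2%). The 16 baits with 8 or more contacts (14.95%, beside 13.0% of all baits) belonged to Itpr1, Kcnn1, Trpm7, Scnn1g, Kcnu1, Kcnh2, Kcnc1, Kcnt1, Kcnn3, Chrna4, Trpc2, Trpm4 and Scn3a. The 10 baits with most contacts held 135 of the 405 (33.3%), and the same proportion of all baits, 717 of 7674, held 34.4%. With the extended baits the median was 2, beside 3 over all baits. There 31.4% had 1 contact (24.6 to 39.1, beside 25.1%) and 13.7% had 8 or more (9.16 to 20.1, beside 17.0%). The 10 extended baits with most contacts held 30.5%, beside 26.6% for the same proportion of all baits.

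**Figure D1:**
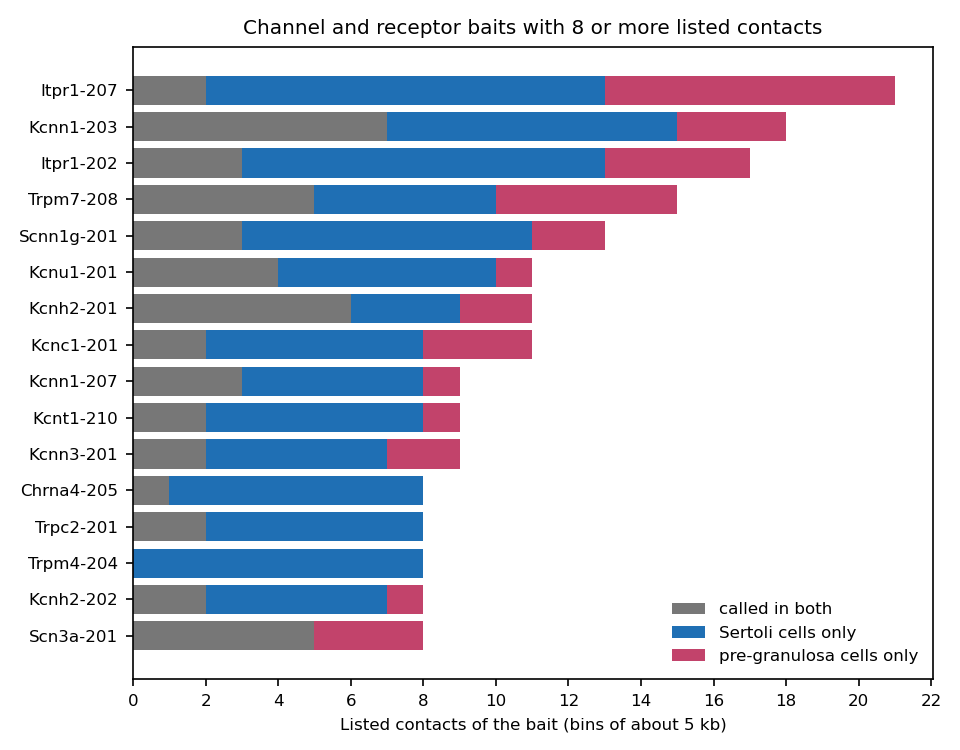
Listed contacts of the 16 channel and receptor baits with 8 or more contacts in the original-bait table. The horizontal axis counts bins of about 5 kb, coloured by whether a bin was called in both cell types, in Sertoli cells only or in pre-granulosa cells only; Trpm4-204 has Sertoli calls only, and Scn3a-201 has no contact called in Sertoli cells only.

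Of the 22 genes with more than 1 bait, 10 had more Sertoli calls at every bait (45.5%, interval 26.9 to 65.3, among them Itpr1, Kcnh2 and Kcnt1), beside 45.3% of 1447 such genes over all baits. In 5 more no bait had more pre-granulosa calls (22.7%, beside 18.2% over all baits). For 5 genes (Cacna1c, Scn10a, Scnn1a, Trpm5 and Trpm8) the baits went in both directions (22.7%, beside 26.7%). Cacna1e and Chrna5 had baits with more pre-granulosa calls and a bait with equal numbers (9.09%, beside 4.63%). No gene had more pre-granulosa calls at all of its baits (interval 0 to 14.9), beside 5.18% over all baits. Each of these intervals covers the value over all baits. Among the extended baits, 8 of 28 genes had more Sertoli calls at every bait (28.6%, beside 29.2%). Kcnt1 was among them, whereas Kcnh2 had baits in both directions and Itpr1 a bait with 32 calls in each cell type. Scn3a had more pre-granulosa calls at all of its extended baits, as 1 of the 28 genes (3.57%, beside 7.66% over all baits). Baits of 1 gene can lie close together and share bins, so they are not independent. Of 46 bins contacted by 2 or more of the original baits, 8 were called only in Sertoli cells from 1 bait and only in pre-granulosa cells from another (17.4%, 9.09 to 30.7), beside 26.8% over all baits. With the extended baits these were 15 of 76 bins (19.7%, 12.3 to 30.0), beside 32.0%.

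**Figure D2:**
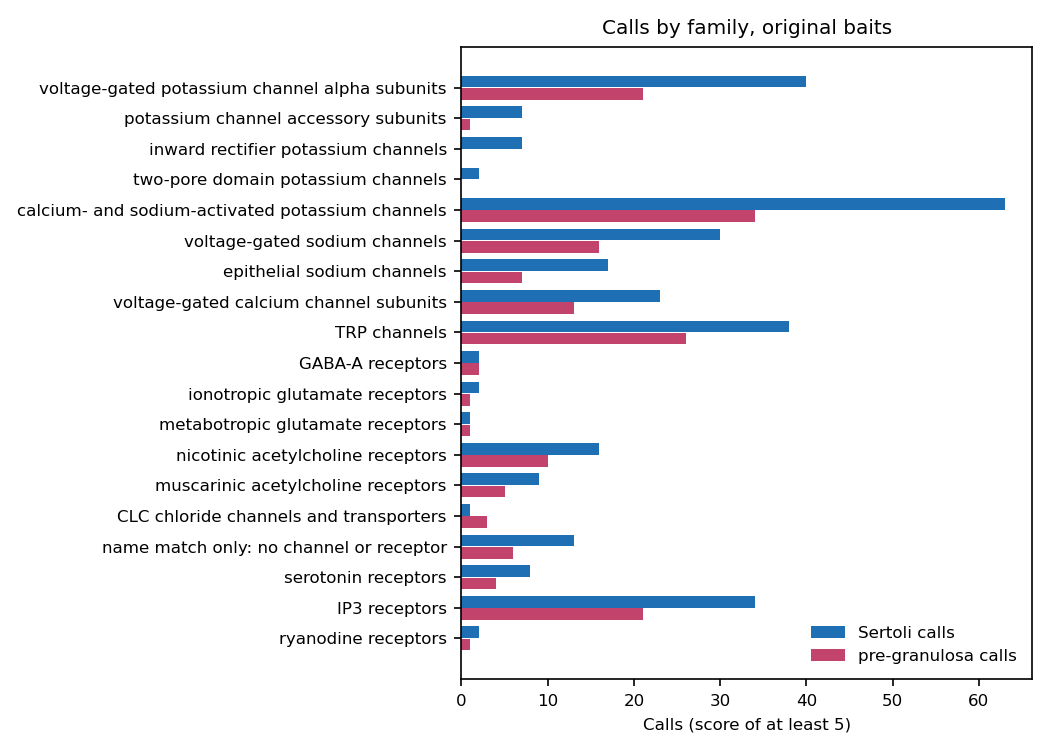
Calls at a score of at least 5 by gene family with the original baits, Sertoli calls above pre-granulosa calls in each pair; the horizontal axis counts calls. The calcium- and sodium-activated potassium channels have the most calls, 63 and 34, and only the CLC family has more pre-granulosa calls, 3 against 1, all 3 at Clcn3-202; with the extended baits it has 8 against 10 Sertoli calls.

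Potassium channels repolarise cells and hold the resting potential. The voltage-gated alpha subunits, which form the pore, had 11 baits of 9 genes with 40 Sertoli and 21 pre-granulosa calls, 11 of them shared, and 9 baits had more Sertoli calls and none more pre-granulosa calls. With the extended baits 10 of 18 had more Sertoli calls and 4 more pre-granulosa calls, so the latter were not lacking there. Over all baits, 65.2% of original and 53.6% of extended baits had more Sertoli calls, and 22.0% and 26.4% had more pre-granulosa calls. These shares stand beside the family counts here and below. Kcnh2, which encodes the pore of the rapid delayed rectifier current, had 11 contacts at Kcnh2-201, with 9 Sertoli and 8 pre-granulosa calls and 6 shared. They lay within its own gene body and on both sides of it. At 6.65 kb into the gene the scores were 13.3 in Sertoli and 11.995 in pre-granulosa cells, and at 85.8 kb they were 8.54 and 11.96. Bins over Nos3 and Atg9b, at 27.5 and 33.0 kb, were called in Sertoli cells only, with scores of 8.42 and 5.43 against 2.51 and 2.16. From Kcnh2-202 the former bin was called in pre-granulosa cells only, with 3.93 and 5.10. Kcnc1, a fast-activating channel of rapidly firing neurons, had 10 of its 11 contacts inside the neighbouring gene Sergef, with 8 Sertoli and 5 pre-granulosa calls, where the extended bait had 2 and 4. The 2 farthest, at 207 and 212 kb, were called in both cell types, with 13.3 and 9.52 at the nearer and 10.4 and 12.5 at the farther, Sertoli score first, while the bins between 73.9 and 191 kb were each called in 1 cell type.

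Kcnq5 encodes a subunit of the M-current, which damps repetitive firing. Its bait Kcnq5-201 had the longest contacts of the set, all inside its own gene, which is 564 kb long. The bin at 545 kb had scores of 7.08 in Sertoli and 4.30 in pre-granulosa cells, the touching bin at 540 kb had 11.0 and 0, and the bin at 483 kb had 0 and 6.43. These bins near the far end of the gene were thus called in 1 cell type each. The extended bait gave the same 3 bins 6.22 and 4.51, 10.5 and 0, and 0 and 6.72.

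Potassium channel accessory subunits (Kcnab1, Kcnab2, Kcnip3) had 7 Sertoli calls and 1 pre-granulosa call at 5 baits, and 14 and 10 at 8 extended baits. Inward rectifiers (Kcnj9, Kcnj11, Kcnj14) had 7 Sertoli calls and no pre-granulosa call at 3 baits, and the K2P leak channels (Kcnk1, Kcnk6) had 2 and 0 at 2 baits. The extended bait of Kcnk6 had its 1 contact called in both cell types, with 14.2 and 18.3. Kcnj11, the pore of the ATP-sensitive channel, had 4 of these calls, of which touching bins over Ush1c at 121 and 126 kb scored 10.01 and 9.90 in Sertoli cells against 3.58 and 3.57. The extended baits gave 19 Sertoli and 6 pre-granulosa calls for 6 inward rectifier genes, so the absence of pre-granulosa calls did not hold there.

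Calcium- and sodium-activated potassium channels had the most calls of any family with the original baits, 63 in Sertoli and 34 in pre-granulosa cells with 23 shared, at 10 baits of 4 genes. With the extended baits they had 64 and 40, and the TRP channels had more. Kcnn1, a small-conductance calcium-activated channel that follows the action potential in neurons, accounted for 37 of the 74 listed contacts through 5 baits within 12.8 kb. At Kcnn1-203, 15 of 18 contacts were Sertoli calls and 10 were pre-granulosa calls, with 7 shared. Its extended bait had 12 Sertoli and 13 pre-granulosa calls among 19 contacts, so the Sertoli excess at this promoter was not found there. The bins on either side of the bait, both in Kcnn1, scored 16.6 and 22.2 in Sertoli and 11.6 and 16.1 in pre-granulosa cells. The others ran up to 139 kb over Il12rb1, Mast3, Pik3r2, Ifi30 and Pde4c to Iqcn, where the farthest bin scored 9.19 and 7.86. That bin was called from 3 other Kcnn1 baits, in Sertoli cells only, in both cell types and in pre-granulosa cells only. Kcnu1, the sperm potassium channel, had 10 Sertoli and 5 pre-granulosa calls among 11 contacts up to 140 kb. Its nearest contact, 6.38 kb away over Ash2l, scored 11.2 and 7.43. Kcnt1, a sodium-activated channel, had 3 baits with 15 Sertoli and 6 pre-granulosa calls. The bins beside Kcnt1-210 scored 15.95 and 15.02 in Sertoli cells against 5.18 and 3.72. Kcnn3 had 9 contacts at the promoter shown above, 7 in Sertoli and 4 in pre-granulosa cells. A bin at 164 kb, beyond the far end of Kcnn3, scored 13.1 and 7.56, and a bin over Chrnb2, the gene of a nicotinic receptor subunit, at 235 kb scored 8.55 and 0.

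Voltage-gated sodium channels carry the rising phase of the action potential. Their 12 baits of 8 genes had 30 Sertoli and 16 pre-granulosa calls, 8 shared, and 9 baits had more Sertoli and 3 more pre-granulosa calls. The extended baits gave 49 and 40 calls, with more Sertoli calls at 10 of 19 baits and more pre-granulosa calls at 5. Scn3a, a channel of embryonic neurons, had an excess of 3 pre-granulosa calls at Scn3a-201, the largest of any bait together with Clcn3-202. All 8 contacts of Scn3a-201 were touching bins between 140 and 178 kb, past the far end of the gene and over no RefSeq gene. In order from the farthest, the Sertoli scores were 4.61, 5.71, 3.38, 10.4, 23.8, 12.03, 7.32 and 2.16, and the pre-granulosa scores were 10.5, 8.67, 8.58, 15.3, 17.1, 5.10, 6.62 and 6.53. Pre-granulosa cells called all 8 and Sertoli cells 5, and the peak fell in the same bin in both (chr2:65409865-65415063). That bin was also contacted by Scn2a-202, 258 kb away, with scores of 5.30 and 9.07. Among the extended baits Scn3a-201 again had 8 contacts, 8 pre-granulosa and 3 Sertoli calls, with the highest scores at 153 and 158 kb. Scn10a-202, a bait of a sodium channel of sensory neurons, had 3 pre-granulosa and 2 Sertoli calls.

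Epithelial sodium channels take up sodium in kidney, lung and gut and are not voltage-gated. Scnn1g-201 had 11 Sertoli and 5 pre-granulosa calls among 13 contacts, all between 185 and 277 kb downstream over the end of Scnn1b, Cog7 and Gga2. The highest score of the set in Sertoli cells, 30.5, was in the bin at 232 kb (chr7:121964066-121969165), where the pre-granulosa score was 3.28. The next bin scored 25.9 and 5.10, the one after it 14.9 and 11.2, and the bin at 227 kb scored 13.49 and 13.4. At 216 kb the scores were 19.8 and 0.272. The score was higher in Sertoli cells in 11 of the 13 bins, and the 3 bins called in both cell types all lay over Cog7. The extended bait had 8 Sertoli and 5 pre-granulosa calls. Its bin that overlaps the one at 232 kb scored 29.6 and 7.14, a call in both cell types, and the next bin scored 27.6 and 1.51. Scnn1b-201, the neighbouring subunit gene, had 3 Sertoli calls and no pre-granulosa call, and 2 and 1 with its extended bait.

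**Figure D3:**
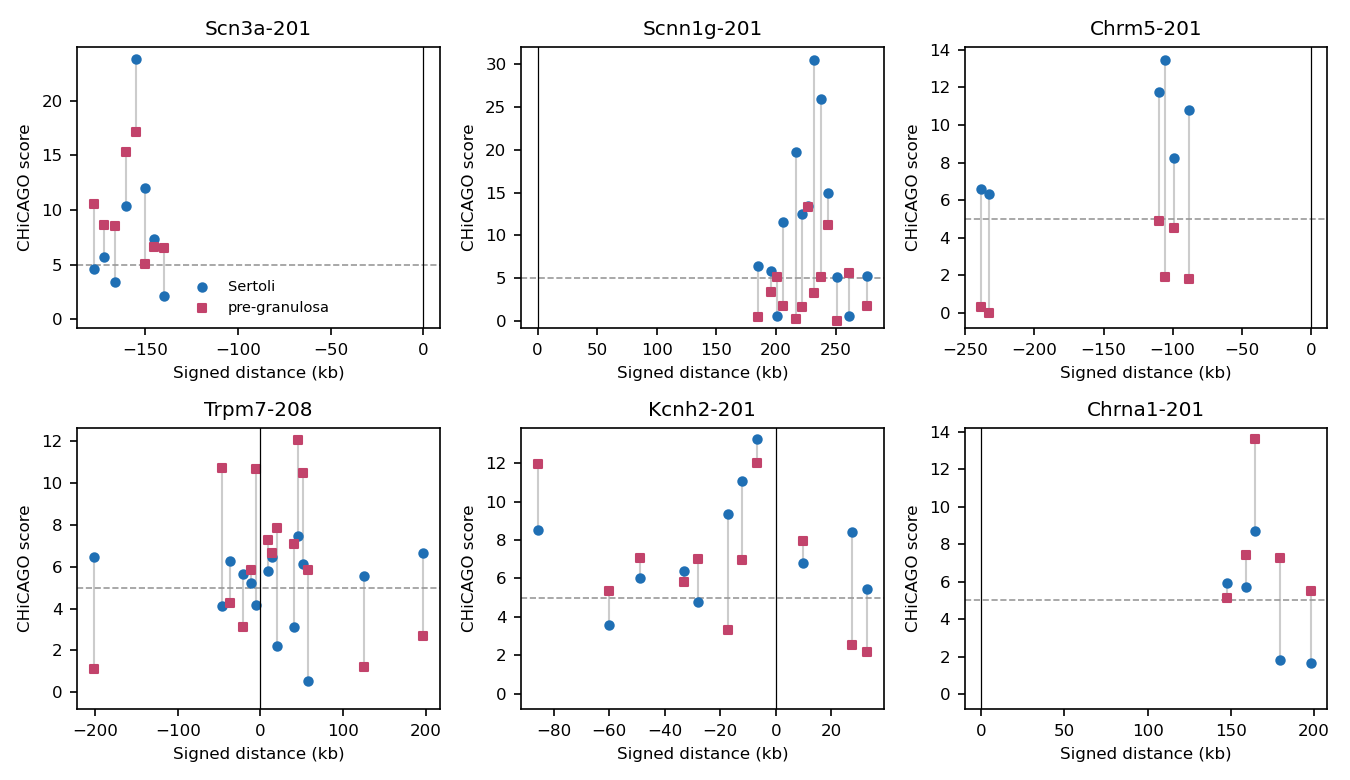
CHiCAGO scores of all listed contacts of 6 baits against signed distance from the bait in kb, positive towards higher coordinates; circles are Sertoli scores, squares are pre-granulosa scores, grey lines join the scores of a bin, the dashed line is the threshold of 5 and the vertical line is the bait. Scn3a-201 peaks in the same bin in both cell types, at 23.8 and 17.1, Scnn1g-201 reaches 30.5 in Sertoli cells, and at Chrm5-201 all 6 pre-granulosa scores lie under the threshold.

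Voltage-gated calcium channels couple depolarisation to calcium entry. Their 16 baits of 10 genes had 23 Sertoli and 13 pre-granulosa calls with 3 shared. More Sertoli calls were found at 8 baits, more pre-granulosa calls at 5 and equal numbers at 3. Calls were few per bait, at most 5. Cacng3, an auxiliary subunit that also binds AMPA receptors, had a contact 3.80 kb before its bait with scores of 13.1 in both cell types. Neighbouring baits Cacna1e-201 and Cacna1e-203 both contacted a bin at 443 kb. The scores were 5.72 and 6.03 at Cacna1e-203 and 2.50 and 7.19 at Cacna1e-201, and the extended bait that covers both gave 7.06 and 17.4. Cacna1a-210 had a contact at 296 kb with a Sertoli score listed as 0 and a pre-granulosa score of 6.54. From Cacna1a-213, 32.6 kb away, the same bin had the opposite call, with 5.25 and 0.314. The family had 34 Sertoli and 23 pre-granulosa calls at 16 extended baits.

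TRP channels are cation channels of sensory cells and of many other tissues. Their 14 baits of 9 genes had 38 Sertoli and 26 pre-granulosa calls, 11 shared, and were divided between 7 baits with more Sertoli and 6 with more pre-granulosa calls. This near-even division was not found with the extended baits, where 13 of 17 had more Sertoli calls and 1 more pre-granulosa calls, from 81 and 47 calls. Trpm7, a channel joined to a kinase and needed for magnesium balance, had 10 calls in each cell type at Trpm7-208, an internal bait, with 5 shared. The 8 bins within the gene body scored between 5.84 and 12.1 in pre-granulosa cells and between 0.534 and 7.48 in Sertoli cells, and each was higher in pre-granulosa cells. Trpm7-202, at the promoter shown above, had a contact 15.3 kb away inside the gene that was called in Sertoli cells only, with 5.47 and 1.51. The extended bait of Trpm7-208 had 10 Sertoli and 11 pre-granulosa calls, and its bins that overlap those at 8.84 and 14.4 kb turned, with 5.14 against 4.78 and 6.22 against 5.06, Sertoli score first. The 5 Sertoli-only calls lay outside the gene, at 202 kb over Hdc, at 36.5 kb over Usp8 and Usp50, at 21.1 kb over Usp50, at 125 kb over Sppl2a and at 198 kb over no gene. Trpm4-204 had 8 Sertoli calls and no pre-granulosa call. The strongest, at 3.45 kb, scored 14.2 against 3.31, and those at 68.4 and 83.5 kb over Snrnp70 scored 9.61 and 10.4 against 2.81 and 4.69. The extended bait of Trpm4-204 had 17 Sertoli and 6 pre-granulosa calls. Trpc2, a pheromone-sensing channel in mouse, had 8 Sertoli and 2 pre-granulosa calls up to 146 kb over Rnf121 and Numa1, and 7 and 5 with its extended bait.

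Trpm8, the cold and menthol receptor, had bins listed at 0 in 1 cell type, and which bins these were differed between the tables. Trpm8-201 had a contact at 5.58 kb with scores of 0 in Sertoli and 27.7 in pre-granulosa cells, the highest pre-granulosa score of the set, and one at 61.1 kb with 0 and 7.30. Trpm8-202 had 0 and 5.62 at the latter bin. Both bins were listed at 0 in Sertoli cells for every interaction they had in the table, 4 of 4 and 6 of 6, whatever the bait. With the extended bait that covers both promoters, bins at 56.5 and 72.2 kb had Sertoli scores of 20.8 and 16.9 and a pre-granulosa score of 0, and these were at 0 in 5 of 5 interactions each. The original bin at 61.1 kb overlaps an extended bin that scored 16.12 and 16.10 and was called in both cell types, and in all that bait had 12 Sertoli and 11 pre-granulosa calls with 9 shared. A bin at 0 for every bait may lack a usable value, and this was not tested. Other contacts around Trpm8 were scored in both cell types. The bin 6.14 kb from Trpm8-202 had 19.8 and 17.5, which made it the strongest shared contact of the set when ranked by the lower of its scores, and with the extended bait the bins at 18.4 and 11.8 kb had 24.6 and 24.4, and 31.3 and 18.1.

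With the original baits, receptors for acetylcholine held most of the contacts of transmitter receptors. Nicotinic receptors, which are channels opened by acetylcholine, had 16 Sertoli and 10 pre-granulosa calls at 7 baits, and 25 and 21 at 12 extended baits. Chrna1, the muscle subunit, whose promoter is shown above, had 5 contacts between 148 and 198 kb, 4 of them in Chn1. Pre-granulosa cells called all 5 and Sertoli cells 3, and the highest scores, 8.69 and 13.6, were in the same bin at 164 kb. The extended bait gave 6 contacts, with 6 pre-granulosa and 3 Sertoli calls. Chrna4-205, a bait of the main neuronal alpha subunit, had 8 Sertoli calls and 1 pre-granulosa call within 51.0 kb. The strongest Sertoli contact, at 39.1 kb, scored 10.3 against 1.14, and the shared one scored 5.48 and 6.48. Muscarinic receptors, which act through G proteins, had 9 Sertoli and 5 pre-granulosa calls at 2 baits. Chrm5-201 had 6 Sertoli calls and no pre-granulosa call (6 and 1 with the extended bait). The scores over Emc4 and Katnbl1, between 87.9 and 110 kb, were 11.7, 13.47, 8.22 and 10.8 in Sertoli cells and 4.89, 1.93, 4.50 and 1.80 in pre-granulosa cells, so 2 of the 4 were just under the threshold in the latter. Chrm4-201 had 3 Sertoli and 5 pre-granulosa calls, mostly in Ambra1, with 6.86 and 7.69 at the shared bin. Its extended bait went in the opposite direction, with 5 Sertoli and 3 pre-granulosa calls.

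The remaining transmitter receptors had few contacts with the original baits. Serotonin receptors had 8 Sertoli and 4 pre-granulosa calls at 3 baits, of which Htr2b-201, a receptor that acts through phospholipase C, had 4 and 4 (2 and 4 with the extended bait). Receptors for GABA and glutamate, the main fast transmitters of the brain, were represented by Gabrr2, Grik4, Grin3a and Grm8, with 1 bait each and 1 to 3 contacts. The extended baits added Grin1, Grin2d, Gria2, Grik5, Grm3, Grm5 and Gabrr1, and ionotropic glutamate receptors then had 21 Sertoli and 15 pre-granulosa calls among 25 contacts. Grin1, the obligatory NMDA receptor subunit, had 9 of these, all Sertoli calls and 4 of them pre-granulosa calls, with scores up to 33.8 and 18.2. Grm8-202 contacted a single bin at 476 kb with scores of 7.73 and 7.32, called in both cell types in both tables. The CLC family was represented by Clcn3 and Clcn6. Clcn3-202, a bait of an endosomal chloride/proton exchanger, had 3 pre-granulosa calls inside its gene, with scores of 7.77, 5.01 and 5.29 against 3.95, 3.55 and 0.232 in Sertoli cells. Clcn3 had Sertoli calls too in the extended table, 4 beside 6 at the bait that covers the same promoter. The 4 genes that match by name only had 13 Sertoli and 6 pre-granulosa calls at 5 baits. With the extended baits there were 7 such genes, with 41 Sertoli and 35 pre-granulosa calls among 51 contacts at 8 baits. Of these contacts, 26 were at the bait that Htra2 shares with Aup1 and Dqx1.

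IP3 receptors release calcium from the endoplasmic reticulum. Itpr1, which is abundant in cerebellar Purkinje cells, had 43 contacts at 3 baits, the most of any gene in the set, with 30 Sertoli and 18 pre-granulosa calls and 5 shared. Nearly all came from Itpr1-202 and Itpr1-207, internal promoters whose baits are neighbours and which shared many bins. The Sertoli and pre-granulosa calls of these 2 baits lay in different places. Inside the Itpr1 gene, between 8.52 and 120 kb, pre-granulosa cells called 11 of 12 contacts and Sertoli cells 1, with a median score of 6.13 in pre-granulosa and 1.84 in Sertoli cells. Beyond the far end of the gene, between 153 and 333 kb, Sertoli cells called 24 of 25 contacts and pre-granulosa cells 6, with a median score of 7.35 in Sertoli and 2.97 in pre-granulosa cells. A single contact, at 314 kb on the other side of the gene, scored 5.41 and 0. Itpr1-201, the third bait, at another promoter, did not share this pattern. Its 3 contacts inside the gene, at 14.8, 129 and 135 kb, were called in Sertoli cells only, with 6.21, 5.48 and 7.08 against 3.75, 2.11 and 3.60. The Sertoli contacts covered Bhlhe40, a transcription factor gene, and the gene-free stretch past it. From Itpr1-207 the bin at 297 kb (chr6:108712004-108717151) scored 19.5 and 1.84, the bin at 323 kb scored 15.7 and 0, and the bin over Bhlhe40 at 246 kb scored 14.7 and 0.320. The order was not without exception. From Itpr1-202 the bin at 314 kb scored 5.29 in Sertoli and 10.6 in pre-granulosa cells, and from Itpr1-207 the bin at 270 kb scored 3.38 and 5.82, where it scored 5.54 and 0 from Itpr1-202. Adjacent baits did not always give the same call in a bin: over Bhlhe40 the pre-granulosa score was 5.38 from Itpr1-202 and 0.320 from Itpr1-207. In the counts above, a bin contacted from both baits counts once for each bait. Over all baits Sertoli calls also prevailed more at long distance. They numbered 1626 against 609 pre-granulosa calls at 200 kb or more, and 5041 against 3497 under 10 kb.

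The extended bait that covers both internal promoters of Itpr1 had 46 contacts, with 32 Sertoli and 32 pre-granulosa calls and 18 shared. Inside the gene, Sertoli cells called 9 of 22 contacts and pre-granulosa cells 18, with median scores of 3.79 and 7.81 in that order. Beyond its far end Sertoli cells called all 21 contacts and pre-granulosa cells 12, with median scores of 9.42 and 5.09. The direction on each side of the gene end was that of the original baits, with more of the contacts shared. Itpr2 had few contacts, 5 at 2 original baits. The ryanodine receptors, the other family of release channels, were represented by Ryr3, with 2 Sertoli calls and 1 pre-granulosa call within 7.68 kb.

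**Figure D4:**
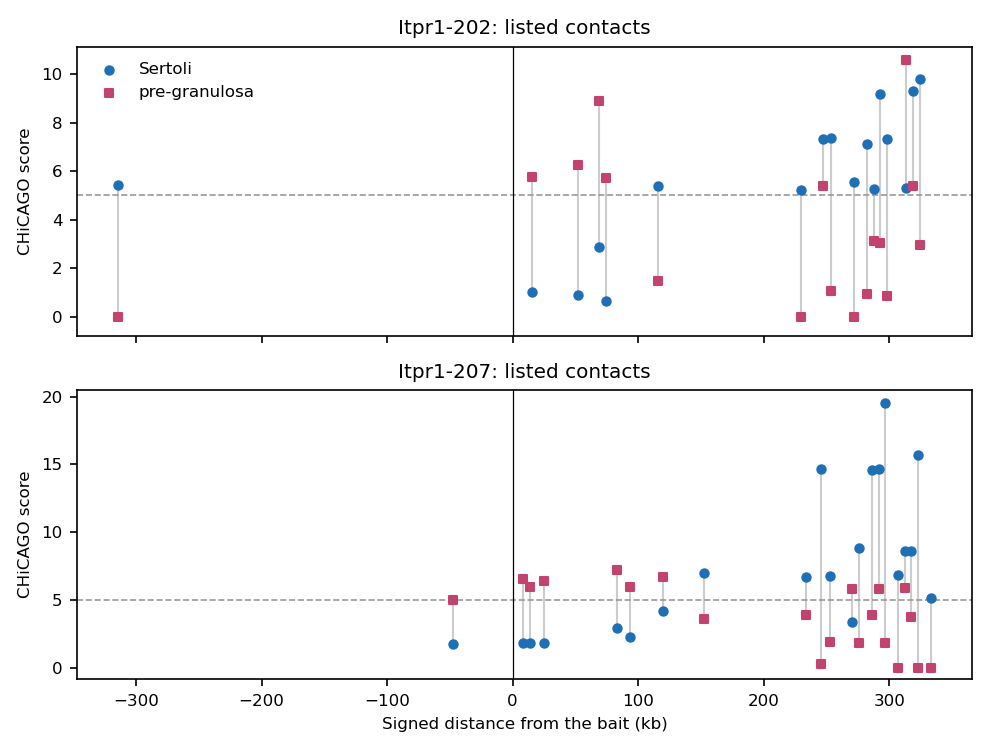
CHiCAGO scores of the listed contacts of Itpr1-202 (top) and Itpr1-207 (bottom) against signed distance from the bait in kb; circles are Sertoli scores, squares are pre-granulosa scores, grey lines join the scores of a bin and the dashed line is the threshold of 5. Contacts up to 120 kb are mostly higher in pre-granulosa cells, and contacts from 230 to 333 kb are mostly higher in Sertoli cells.

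Contacts of the channel and receptor baits lay farther away than those of all baits, and a few genes carried much of this. The median distance was 62.1 kb for Sertoli calls (43.5 to 82.1) and 48.2 kb for pre-granulosa calls (24.2 to 61.1), against 42.6 and 26.0 kb over all baits. Calls at 200 kb or more were 16.2% of Sertoli calls (12.5 to 20.7), beside 6.99% over all baits, and 14.5% of pre-granulosa calls (10.04 to 20.6), beside 5.06%. These 63 contacts came from 23 baits of 21 genes, but Itpr1 gave 25 and Scnn1g 11 of them. Without the baits of these 2 genes the far share was 6.57% for Sertoli calls (4.20 to 10.1) and 9.40% for pre-granulosa calls (5.68 to 15.2), and the median distances were 43.1 and 33.7 kb. The Sertoli values were then close to those of all baits. Both genes were chosen after the data were seen, and the values over all baits kept every bait. A fall of the far share was thus built in. With all extended baits the far shares were 12.7% and 11.1%, beside 6.17% and 5.51%, and Itpr1 gave 21 and Scnn1g 8 of 75 contacts. Shared contacts were nearer, at a median distance of 26.6 kb, than Sertoli-only contacts, at 72.7 kb, or pre-granulosa-only contacts, at 57.1 kb, and the same order held over all baits, at 17.3, 53.6 and 36.6 kb.

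**Figure D5:**
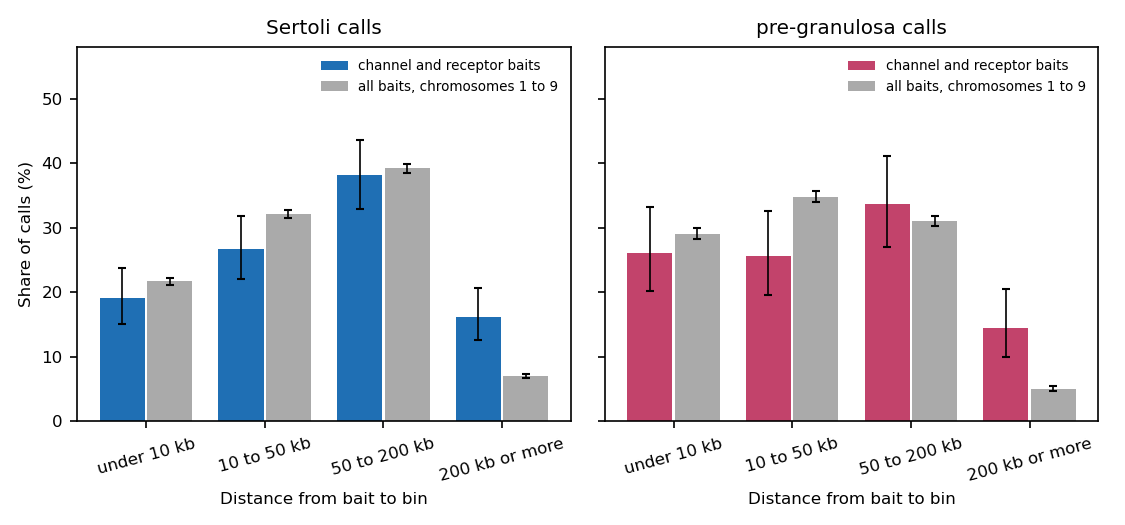
Shares of Sertoli calls (left) and pre-granulosa calls (right) by distance from bait to bin, for the channel and receptor baits (coloured) and all baits of chromosomes 1 to 9 (grey), original baits; bars are percent of calls and error bars are 95% Wilson intervals, which cover counting error only. In the class of 200 kb or more the coloured bars stand at 16.2% and 14.5% and the grey bars at 6.99% and 5.06%; Itpr1 holds 25 and Scnn1g 11 of the 63 contacts in it.

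The genes themselves were long, with a median of 62.8 kb against 19.1 kb over all genes with baits, and of 35.8 kb against 17.1 kb for the genes of the extended baits. The bait's own gene body held 34.6% of Sertoli calls (29.6 to 40.01) and 42.4% of pre-granulosa calls (35.3 to 49.9), against 30.1% and 34.7% over all baits. Of the contacts called in pre-granulosa cells only, 38 of 90 lay in the own gene (42.2%, 32.5 to 52.5), beside 29.2% over all baits. The extended baits gave 32.9% (25.6 to 41.0) beside 19.7%. Without Itpr1 the original contacts were 27 of 77 (35.1%, 25.3 to 46.2), an interval that covers the value over all baits. The extended share was not counted without Itpr1, whose internal promoters had 18 pre-granulosa calls inside the gene there, 5 of them shared. Without Itpr1 the own gene held 36.8% of original Sertoli calls (31.5 to 42.6) and 40.3% of pre-granulosa calls (32.8 to 48.2). Only the latter interval covers the value over all baits. For the 42 baits with a RefSeq start site, 66.7% of Sertoli calls (57.2 to 75.0) and 63.8% of pre-granulosa calls (50.9 to 74.9) lay on the downstream side of the start, against 51.4% and 50.2% of all such baits. Without Scnn1g, whose 13 contacts were all downstream, these shares were 62.8% (52.7 to 71.9) and 60.4% (46.9 to 72.4), and the latter interval covers the share of all such baits. Kcnc1, with 8 Sertoli calls mostly in the downstream gene Sergef, was not left out. Calls of 1 bait are not independent.

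Contacts called in 1 cell type ranged from those just under the threshold in the other to those with a score near 0 or listed at 0 there. Of the 233 Sertoli-only contacts, 32.2% had a pre-granulosa score of 3 or more and 24.9% one under 1, beside 33.9% and 23.1% over all baits. Of the 90 pre-granulosa-only contacts, 44.4% had a Sertoli score of 3 or more and 16.7% one under 1 (10.4 to 25.7), beside 48.3% and 9.71%. The gap in the latter share was not found with the extended baits, at 13.6% (8.86 to 20.2) beside 12.3%. A score of 0 in the other cell type was listed for 19 Sertoli calls (6.03%) and 6 pre-granulosa calls (3.49%, 1.61 to 7.40), beside 5.23% and 0.682% over all baits. The extended shares were 4.63% and 2% (0.972 to 4.07), beside 3.02% and 1.63%. Trpm8 accounted for 3 of the 6, in the bins at 0 for every bait, so a listed 0 does not show that signal was absent.

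The extended baits bring neighbouring fragments into 1 bait and list many more contacts between baits. At the channel and receptor baits they gave 497 Sertoli and 350 pre-granulosa calls with 210 shared, beside 78.7%, 55.9% and 34.6% of all listed interactions for Sertoli calls, pre-granulosa calls and shared calls. Their ratio of 1.42 (1.24 to 1.63) stands beside 1.41 over all baits. More Sertoli calls were found at 87 of 153 baits (56.9%, beside 53.6%) and more pre-granulosa calls at 30 (19.6%, beside 26.4%), and equal numbers at 36 (beside 20.0%). The direction at single baits often differed between the tables. Of 69 original baits with more Sertoli calls whose promoter lies in an extended bait, 49 again had more Sertoli calls (71.0%, beside 76.1% of all such baits). Of 14 with more pre-granulosa calls, 6 kept that direction and 6 turned (42.9% kept it, beside 54.1%). Scn3a-201, Chrna1-201 and Clcn3-202 were among those that kept it, and Chrm4-201 and Trpm5-201 among those that turned. Of the 405 original interactions, 243 were found at the same promoter with bins that overlap by at least 50%. Among 134 of these called in Sertoli cells only, 129 again had the higher score in Sertoli cells, and among 52 called in pre-granulosa cells only, 48 had it in pre-granulosa cells. With the extended baits, however, 38 of the 134 and 16 of the 52 were called in both cell types. Such counts were not made over all baits. Of 57 shared contacts found again, 42 were called in both cell types. The tables come from the same libraries, so this is no replicate.

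Some channel and receptor genes that lie near each other were joined by contacts. With the original baits, whose calls join 2 baits only once, the other ends lay in the body of another gene of these families in 6 cases, among them Kcnj9 to Kcnj10, Kcnn3 to Chrnb2, Trpc2 to Chrna10 and Scnn1g to Scnn1b. In all, 36.8% of the 405 contacts lay in another gene and not in their own, beside 42.5% over all baits. With the extended baits, promoters of different members were joined directly. Scnn1g and Scnn1b, 130 kb apart, scored 10.6 and 11.0 in Sertoli cells from the 2 sides and 2.65 and 3.19 in pre-granulosa cells. Trpm4 and Kcna7, 97.1 kb apart, scored 10.5 from both sides in Sertoli cells and 2.28 and 2.14 in pre-granulosa cells. Kcna2 and Kcna10, 79.8 kb apart, scored higher in pre-granulosa cells, with 5.90 and 9.53 against 2.98 and 6.43. Chrna3 reached the bait 22.1 kb away in the same nicotinic cluster with 6.42 and 5.94. Further pairs were Kcnj10 with Kcnj9, Scn3a with Scn2a, Gabrr1 with Gabrr2, Trpv6 with Trpv5, Htr3a with Htr3b and Chrna3 with Chrna5, each called in 1 cell type with scores of 5.27 to 5.87. The 2 sides of a pair use the same junctions and are not independent.

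Other genes of related function, from lists of named genes, were counted in the same way. Other ion channels (24 genes, among them Ano1, Hcn3, P2rx7, Panx1 and Pkd2) had 111 Sertoli and 28 pre-granulosa calls at 35 baits, a ratio of 3.96 beside 1.93 over all baits, of which 28 had more Sertoli calls (80.0%, beside 65.2% of all baits). Synaptic scaffold and release proteins (19 genes, among them Bsn, Shank1, Shank2 and Unc13a) had 93 and 41 calls at 30 baits, 22 with more Sertoli calls (73.3%). Other transmitter receptors (10 genes, among them Adora1, Drd4 and Npy1r) had 30 and 19 calls at 11 baits, 5 with more Sertoli and 4 with more pre-granulosa calls. In the extended table these 3 lists had more Sertoli calls at 34 of 52, 25 of 40 and 9 of 18 baits in the order ion channels, synaptic proteins and receptors, beside 53.6% of all baits. The ratio for the other ion channels was then 1.95, from 213 and 109 calls, beside 1.41. These are small lists, and nothing was tested on them.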

How the data were processed

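Capture Hi-C of 3 Sertoli and 2 pre-granulosa libraries was deposited as 2 interaction tables, 1 with original and 1 with extended baits. The authors deposited 1 CHiCAGO score per interaction and cell type, named as such with the tables, and a signed distance in bp between bait and other end. Per the labels' sample descriptions all libraries of a cell type stand behind 1 column. The build, mm10, is given per the submitters' processing notes. Aligner, caller version and read filters are not given in the sources used here, and the depth is unknown.

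Interactions were read with pandas 2.3.3 under Python 3.11.15, and counted at a score of at least 5 (alternatives 7 and 10). Wilson and order-statistic intervals used SciPy 1.17.1 and NumPy 2.4.6. No p-value was computed, since each cell type has 1 column. The counting scripts were tested on simulated data. The members, families and lists were chosen with earlier results of these data known. All 74 gene symbols of the original baits and all 108 of the extended baits were found in the RefSeq table, whose GRCm38.p6 coordinates gave gene bodies and promoters. Bins were assigned to the bait's own gene first, then to any other gene they overlap.

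The text names the 5 baits with most contacts, the 5 leaning most to each cell type by number of calls, the 5 contacts leaning most in each direction by asinh score, the 5 strongest shared and the 5 longest contacts, contacts between members, genes with more than 1 bait, and the bait with most calls of each family. Kcnj11, Chrm4 and further examples were added after their values were seen. Some genes that this rule names are not reported here. Interactions between chromosomes and baits on chromosome X were left out.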

Additional observations from a re-analysis of the deposited data

Results flagged for a closer look

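Interactions between chromosomes were left out of the comparisons, and the channel and receptor baits had 4 of them with the original baits, of 269 in the table on chromosomes 1 to 9, and 6 with the extended baits, of 232. They are given because no comparison used them. They were 1.49% of these interactions (interval 0.580 to 3.76) and 2.59% (1.19 to 5.53), beside 1.40% (109 of 7798) and 1.39% (155 of 11124) of the baits with any listed interaction within or between chromosomes, which both intervals cover. Over all baits the original table held 35 Sertoli calls and 235 pre-granulosa calls of this kind, and the extended one held 23 and 212. With the original baits 1 was called in Sertoli cells, from Trpm8-201 to chromosome 17 (6.43 and 1.41), and 3 in pre-granulosa cells, each listed at 0 in Sertoli cells, from Scn9a-202 (6.64), Gabrr2-202 (6.99) and Scn3b-209 (5.49). With the extended baits 2 were Sertoli calls and 5 were pre-granulosa calls. Grm7-203, of a glutamate receptor gene, contacted the Ubap2-206 promoter on chromosome 4 with scores of 21.1 in Sertoli and 10.7 in pre-granulosa cells, the only one called in both. The extended Trpm8 bait scored 26.5 and 1.08 at a bin on chromosome 17. Errors of mapping or assembly were not tested.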

How the results depend on the processing

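No paired analysis was possible because each cell type has 1 score column over all its libraries, and for the same reason no replicate could be left out. Merging touching bins, leaving out baits that match by name only (Htra, Itprid and Itpripl genes, and, added after the data were seen, Trpc4ap) and leaving out baits shared with another gene kept each result within its interval or 1.5 times its count, and no original bait was shared with another gene. All of these changes were made with the original baits only. Keeping as many top scores in Sertoli as in pre-granulosa cells, which sets the ratio over all baits to 1 by construction, gave a ratio of 0.977 (0.790 to 1.21), with 168 Sertoli calls, 32 baits with more Sertoli calls, shared shares of 33.3% of Sertoli and 32.6% of pre-granulosa calls, and 22.0% of Sertoli calls at 200 kb or more.

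With the extended baits there were 497 Sertoli and 350 pre-granulosa calls (ratio 1.42), and shared shares of 42.3% and 60.0%. Calls that join 2 baits rose from 0% and 0.581% to 50.1% and 50%, beside 55.2% and 61.0% over all extended baits, and contacts at 0 in the other cell type numbered 23 and 7. A threshold of 7 left 126 and 60 calls, 40 baits with more Sertoli calls, shared shares of 19.0% and 40.0% and a far share of 24.6% of Sertoli calls. A threshold of 10 left 44 and 23 calls, 17 such baits, a median distance of 115.7 kb and a far share of 36.4% for Sertoli calls. A minimum distance of 50 kb left 171 and 83 calls, 43 such baits, a shared share of 20.5% of Sertoli calls, median distances of 138 and 149 kb, and far shares of 29.8% and 30.1%, as its construction requires. Leaving out Itpr1, chosen after the data were seen, gave a far share of 9.47% of Sertoli calls. Leaving out Itpr1 and Scnn1g, also chosen after the data were seen, gave far shares of 6.57% and 9.40% and a Sertoli median of 43.1 kb. Where not stated, the cause was not tested. Depth per library is unknown, so a contact not called cannot be told from one not detectable.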
